A study of Mus musculus with 4 samples.

Results

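The *Cyp2a* and *Cyp2b* genes of mouse chromosome 7 were followed between the nuclear periphery and the interior in primary hepatocytes. The 9 genes, taken by symbol from the GENCODE annotation of NCBIM37 (the same assembly as mm9), were *Cyp2a4*, *Cyp2a5*, *Cyp2a12*, *Cyp2a22*, *Cyp2b9*, *Cyp2b10*, *Cyp2b13*, *Cyp2b19* and *Cyp2b23*, out of 22367 protein-coding genes, and all 9 were found. DamID marks DNA at the nuclear lamina, because a Dam methylase fused to LaminB1 methylates the adenine of GATC sites near it, whereas Dam alone measures how accessible each stretch is. Hepatocytes of WT mice and of *Tm7sf2*-/- (KO) mice, both on a C57BL/6 background and aged 12 to 16 weeks, were cultured with dexamethasone, insulin and EGF and transduced for 24 h with lentivirus carrying Dam-LaminB1 or the Dam-only control. The KO mice lack Tm7sf2 (NET47), a sterol reductase of the endoplasmic reticulum and nuclear envelope. Each of the 4 libraries, 1 of each construct per genotype, held the pooled DNA of 4 mice. No replicate libraries were therefore available, so each difference given here is between 2 pools, with no spread between animals and no p-value. Only transduced cells contribute signal, the sex of the mice is not given in the sources used here, and neither the genotype nor the cell type can be checked from lists of regions. WT had 8107 LADs and KO 16076, at nearly the same coverage (55.4% and 56.1% of all 21 chromosomes).

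Cytochromes P450 of the CYP2A and CYP2B subfamilies are heme enzymes of the endoplasmic reticulum that oxidize steroids, drugs and other foreign compounds, mainly in the liver. *Cyp2b10* is known for its strong induction by phenobarbital through the nuclear receptor CAR, and *Cyp2a5* encodes a coumarin hydroxylase. *Cyp2a4* encodes a steroid hydroxylase, and *Cyp2a4*, *Cyp2b9* and *Cyp2b13* are known for higher expression in female than in male mouse liver. The genes arose by tandem duplication, and several are close copies of each other.

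The data are lists of lamina-associated domains (LADs) in WT and KO, and of the differential regions (DRs), which are the stretches of at least 10 kb in a LAD of one genotype only. A gene was called PI (periphery to interior) where at least 1 base of its span lay in a WT-only DR, IP (interior to periphery) where 1 lay in a KO-only DR, and AMB where both held. The other genes were PP if LADs of both genotypes lay on them and II if not. LADs are placed at the GATC sites that flank sequenced fragments, and all 38 borders of LADs in or next to the cluster lay at such a site. The borders that decide the position of the PI genes are shown with 20 bases on each side and the GATC site in capitals (plus strand, NCBIM37).
End of the WT LAD in intron 1 of *Cyp2b13*, chr7:26849475-26849518: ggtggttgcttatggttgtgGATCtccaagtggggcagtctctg
Start of the WT LAD in intron 4 of *Cyp2b9*, chr7:26977778-26977821: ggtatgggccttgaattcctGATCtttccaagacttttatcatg
End of the WT LAD in intron 8 of *Cyp2b9*, chr7:26994667-26994710: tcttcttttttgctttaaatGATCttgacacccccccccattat
End of the last KO LAD before *Cyp2b23*, chr7:27435939-27435982: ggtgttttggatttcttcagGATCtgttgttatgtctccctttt
End of the WT LAD over *Cyp2b23*, chr7:27479916-27479959: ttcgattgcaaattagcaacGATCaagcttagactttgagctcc
Start of the WT LAD over *Cyp2a22*, chr7:27714171-27714214: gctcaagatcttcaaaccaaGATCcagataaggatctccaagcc
End of the WT LAD over *Cyp2a22*, chr7:27729509-27729552: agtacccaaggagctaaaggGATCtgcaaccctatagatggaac
Start of the WT LAD over *Cyp2a12*, chr7:27778161-27778204: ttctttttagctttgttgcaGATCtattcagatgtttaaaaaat
End of the WT LAD over *Cyp2a12*, chr7:27840240-27840283: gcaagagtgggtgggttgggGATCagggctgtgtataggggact

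Of the 9 genes, 5 were PI and 4 were II, and none was IP, PP or AMB. Over all protein-coding genes the PI share was 5.43% (5.65% on chromosome 7), the IP share 17.1%, the PP share 17.9%, the II share 56.6% and the AMB share 2.96%. The PI genes were *Cyp2b13*, *Cyp2b9*, *Cyp2b23*, *Cyp2a22* and *Cyp2a12*, and each lay in a different WT LAD. The II genes were *Cyp2b10*, *Cyp2a4*, *Cyp2b19* and *Cyp2a5*. Both subfamilies were divided, with 2 of 4 *Cyp2a* genes and 3 of 5 *Cyp2b* genes PI. No KO LAD touched any of the 9 genes, whereas 41.7% of all protein-coding genes had a KO LAD on them and 30.4% a WT LAD. Of all protein-coding genes 2.32% had a WT LAD but no KO LAD, which is 7.63% of the 6805 genes with a WT LAD, and all 5 PI genes of the cluster were of that kind. The genes are neighbors on one chromosome and are not independent of each other.

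**Figure D1:**
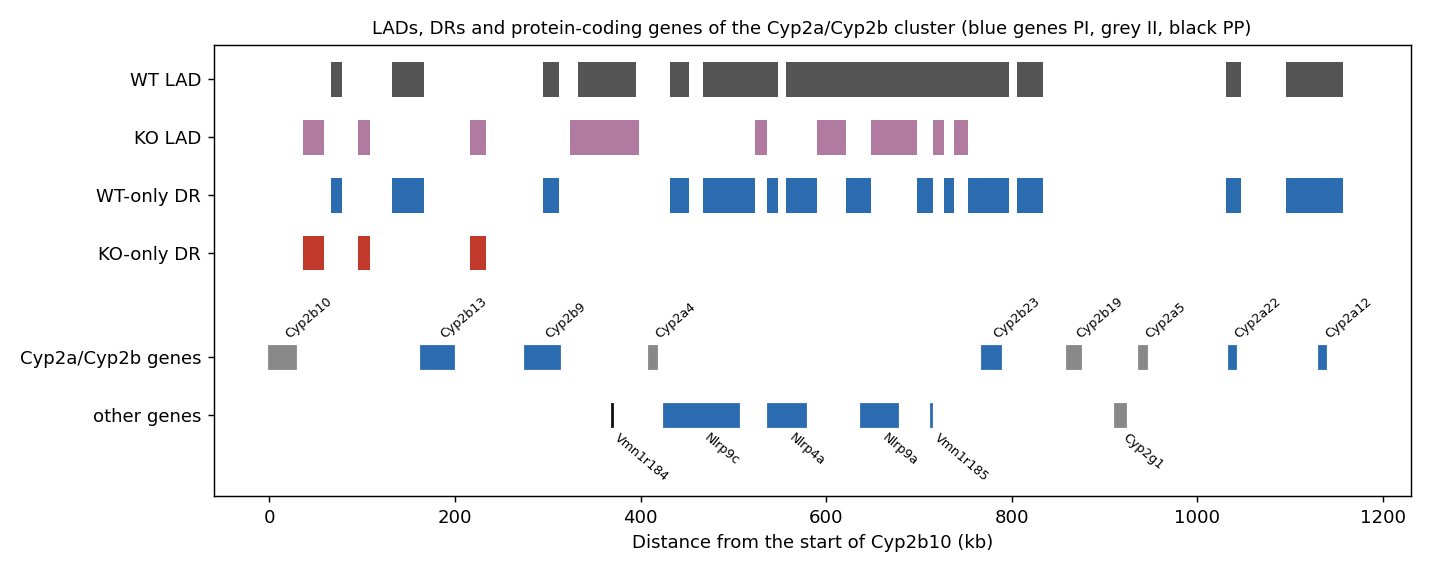
WT and KO LADs, WT-only and KO-only DRs and protein-coding genes along the cluster, drawn to scale by the distance in kb from the start of *Cyp2b10*. The 9 *Cyp2a*/*Cyp2b* genes are on the upper gene row and the other genes on the lower one; PI genes are blue, II genes grey and the PP gene black. No KO LAD lies on any of the 9 genes, and the last KO LAD ends before *Cyp2b23*.

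The cluster, from the start of *Cyp2b10* to the end of *Cyp2a12*, spans 1139 kb (chromosome 7, 26682639 to 27821826). WT LADs covered 556 kb of it (48.8%) and KO LADs 247 kb (21.7%), with 184 kb in both. Of the WT LAD bases, 66.9% lay outside KO LADs, against 14.5% on chromosome 7 and 12.9% over all chromosomes. Conversely, 25.4% of the KO LAD bases lay outside WT LADs. WT-only DRs, 14 in number, took up 32.7% of the cluster, and 3 KO-only DRs took up 4.50%. The ratio was 7.26, against 1.27 on chromosome 7 and 17.2 in the *Cyp2c* cluster of chromosome 19. Of the 10 WT LADs of the *Cyp2a*/*Cyp2b* cluster, 7 met no KO LAD, and 5 of its 9 KO LADs lay wholly within WT LADs.

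The cluster stood apart from its surroundings in WT. In the 1 Mb before it no base was in a WT LAD, and in the 1 Mb after it 1.84% was. In KO these flanks had 4.85% and 9.19% of their bases in LADs. The stretch without a WT LAD that ends at the cluster ran for 1670 kb, and *Cyp2b10* was its last gene before the first WT LAD. In KO a stretch without a LAD ran for 927 kb, from 27435961 to 28363290, and took in 5 of the 9 genes, from *Cyp2b23* to *Cyp2a12*. In WT the same stretch held 4 LADs with 149 kb. The G+C content was 41.4% in the cluster, 49.4% in the 1 Mb before it and 46.7% in the 1 Mb after it.

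Along the cluster the genotypes differed in sections. From *Cyp2b10* to *Cyp2b9* (313.0 kb), WT LADs covered 20.4% and KO LADs 16.4%, and they shared no base. Between *Cyp2b9* and *Cyp2a4* a WT LAD of 62.3 kb lay wholly within a KO LAD of 73.8 kb, over the pheromone receptor gene *Vmn1r184*, which was PP. Between *Cyp2a4* and *Cyp2b23* (350.1 kb), WT LADs covered 89.5% and KO LADs 34.8%. From *Cyp2b23* to *Cyp2a12* (371.6 kb), WT LADs covered 31.4% and KO LADs none.

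*Cyp2b23* (chromosome 7, 27450246 to 27471456, minus strand) lay wholly in the last part of a WT LAD of 241 kb, with all 9 exons. The KO LADs stopped 14.3 kb short of the gene, and the WT-only DR of 44.0 kb reached 8.48 kb past its other end. In WT the same LAD took in *Nlrp9a*, *Vmn1r185* and part of *Nlrp4a*, so this gene was at the edge of a long domain.

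*Cyp2a22* (27716650 to 27724405, minus strand) and *Cyp2a12* (27814109 to 27821826, plus strand), which encodes a steroid hydroxylase, were also wholly in WT LADs with all 9 exons. The WT LAD over *Cyp2a22* was 15.3 kb long and held 47 GATC sites. It reached 2.46 kb and 5.12 kb beyond the 2 ends of the gene. The WT LAD over *Cyp2a12* was 62.1 kb long, with 212 GATC sites, and reached 35.9 and 18.4 kb beyond the gene. Each of these LADs held 1 protein-coding gene and met no KO LAD. Over all protein-coding genes, 1.24% lay wholly in a WT-only DR, and 3 of the 9 did. The WT-only DRs on *Cyp2a22* and *Cyp2b9* were under 20 kb, and neither gene was PI when DRs of at least 20 kb were required.

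*Cyp2b9* (26958430 to 26995680, plus strand) had 45.3% of its 37.3 kb in a WT LAD of 16.9 kb that began and ended inside the gene, in intron 4 and intron 8. Exons 5 to 8 were in that LAD, and exons 1 to 4 and 9 were in no LAD of either genotype. The transcription start was 19.4 kb from the nearest WT LAD.

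*Cyp2b13* (26846514 to 26881215, plus strand) showed the opposite arrangement. A WT LAD of 34.4 kb covered the upstream DNA, the transcription start and exon 1, and ended 2.98 kb into the gene, in intron 1. It took up 8.60% of the span and 6 GATC sites of the gene, and exons 2 to 9 lay outside LADs.

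**Figure D2:**
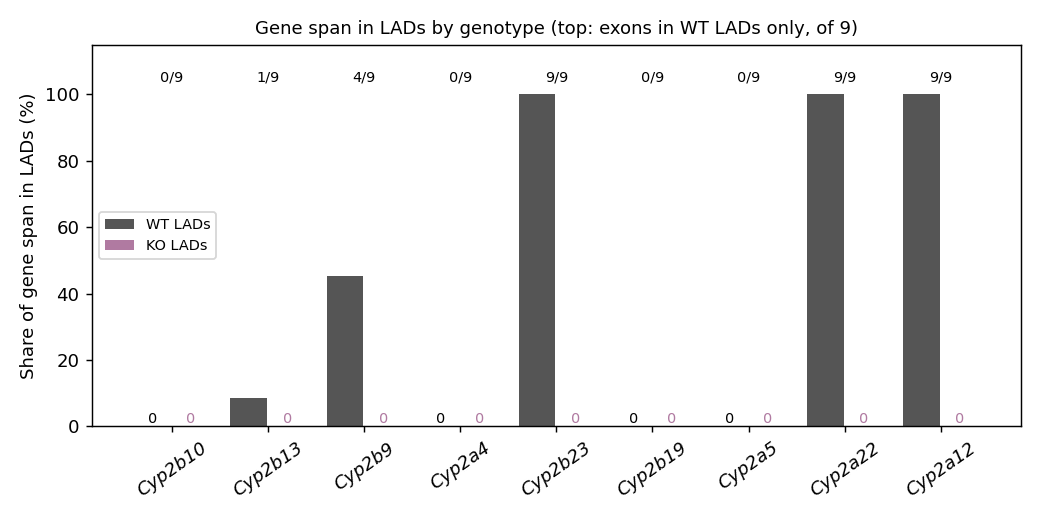
Share of each gene's span (%) in WT LADs (dark bars) and KO LADs (purple, 0 for every gene), in the order along the chromosome; the numbers above give the exons in WT LADs only, of 9. *Cyp2b23*, *Cyp2a22* and *Cyp2a12* were at 100% in WT, *Cyp2b9* at 45.3% and *Cyp2b13* at 8.60%.

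Of the 81 exons of the 9 genes, 32 were in WT LADs only, 0 were in KO LADs and 49 were in neither. Most of the 32 were the exons of *Cyp2b23*, *Cyp2a22* and *Cyp2a12*, 9 in each, so these counts largely repeat the gene calls. The share over the exons of all genes was not computed. The median share of the span in WT LADs was 8.60% for the 9 genes and 0% for all protein-coding genes, and in KO LADs it was 0% for both. For 4 of the 9 genes the start itself lay in a WT LAD and in no KO LAD (*Cyp2b13*, *Cyp2b23*, *Cyp2a22* and *Cyp2a12*), against 2.68% of all protein-coding genes. No start was in a KO LAD only, against 12.5% of all protein-coding genes, and none was in LADs of both genotypes.

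The 4 II genes differed in how far they were from a LAD. *Cyp2a4* (27092209 to 27100107, plus strand) was near LADs of both genotypes. Its start was 14.8 kb from the nearest WT LAD and 11.4 kb from the nearest KO LAD, and all 9 exons were outside LADs in both genotypes. The paper lists both *Cyp2a4* and *Cyp2b9* among P450 genes with several exons in LADs of WT only. Here that held for *Cyp2b9*, with 4 such exons, but not for *Cyp2a4*. The reason for the difference at *Cyp2a4* was not tested. *Cyp2b10* (26682639 to 26711643, plus strand) had its start 65.9 kb from the nearest WT LAD and 36.4 kb from the nearest KO LAD, and a KO-only DR of 21.9 kb began 7.39 kb past its 3′ end. *Cyp2b19* (27542182 to 27557649, plus strand), an arachidonic acid epoxygenase gene of keratinocytes, had its start 26.2 kb from a LAD in WT and 106 kb in KO. *Cyp2a5* (27620324 to 27628567, plus strand) was the most remote in WT, with 93.9 kb in WT and 184 kb in KO.

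The start was farther from the nearest LAD in KO for 7 of the 9 genes and closer for *Cyp2b10* and *Cyp2a4*. For *Cyp2b13*, *Cyp2b23*, *Cyp2a22* and *Cyp2a12* this follows from the start calls above. The share of all protein-coding genes with a farther start in KO was not computed, so the count has no background. The longest distances in KO were those of *Cyp2a22* (288 kb) and *Cyp2a12* (378 kb), whose starts were inside WT LADs. The other starts inside WT LADs were 52.7 kb (*Cyp2b13*) and 35.5 kb (*Cyp2b23*) from the nearest KO LAD, and that of *Cyp2b9* was 42.8 kb from it. These 9 distances were set by a few LAD borders, since several genes share the same nearest KO LAD.

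**Figure D3:**
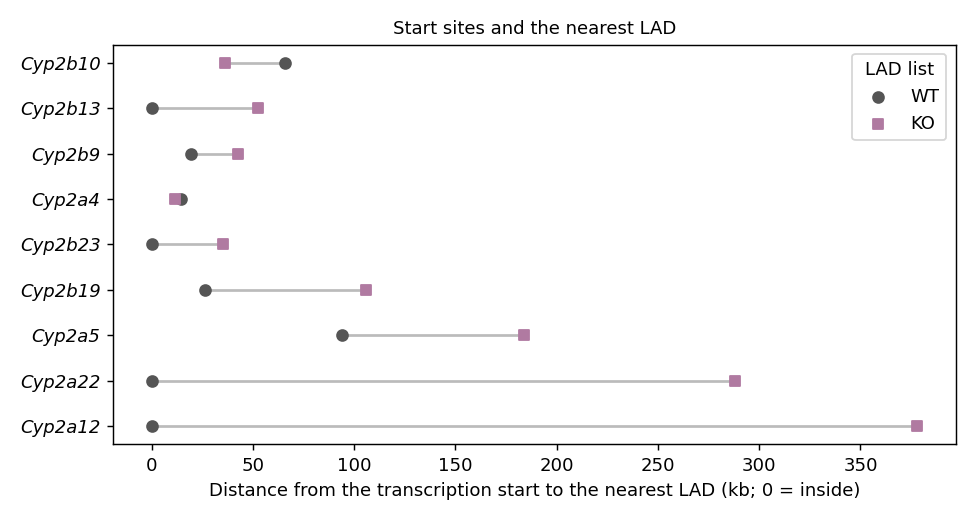
Distance (kb) from the transcription start of each gene to the nearest WT LAD (circles) and KO LAD (squares), with 0 for a start inside a LAD. *Cyp2b13*, *Cyp2b23*, *Cyp2a22* and *Cyp2a12* are at 0 in WT, and no gene is at 0 in KO.

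The 3 KO-only DRs of the cluster, of 21.9, 12.9 and 16.5 kb, all lay between *Cyp2b10* and *Cyp2b9* and overlapped no protein-coding gene. They alternated with the WT-only DRs of this section, so that the DNA around *Cyp2b13* had LADs on different stretches in the 2 genotypes. When 100 kb around the midpoint of each gene were read instead, *Cyp2b10* was IP and *Cyp2b13* AMB, *Cyp2a4* and *Cyp2b19* were PI, and *Cyp2a5* alone stayed II, whereas 9.71% of all genes were PI by this measure.

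The position calls were set beside the relatedness of the genes. Coding sequences were 84.6% to 92.5% identical among the *Cyp2b* genes, 75.3% to 98.5% among the *Cyp2a* genes and 59.5% to 62.1% between the subfamilies. The closest pairs were *Cyp2a4* with *Cyp2a5* (98.5%, 23 of 1485 bases different), *Cyp2a22* with *Cyp2a12* (97.0%, 45 of 1479) and *Cyp2b13* with *Cyp2b9* (92.5%, 110 of 1476). Within each of these 3 pairs both genes had the same class by span, II for the first and PI for the others. The next closest pair, *Cyp2b10* with *Cyp2b13* (88.6%), differed in class, as did *Cyp2b23* and its closest relative *Cyp2b10* (87.6%). *Cyp2b19* and its closest relative *Cyp2b10* (87.8%) were both II. Of all 36 pairs 16 shared a class, a count fixed by the 5 PI and 4 II calls whatever the sequences are. The 3 closest pairs were each divided under other settings. *Cyp2b13* and *Cyp2b9* differed in class by the start, at 10% of the span and with LADs or DRs of at least 20 kb, and the 20 kb minimum also divided *Cyp2a22* from *Cyp2a12*. With 100 kb around each gene *Cyp2b13* and *Cyp2b9* differed too, and *Cyp2a4* and *Cyp2a5* differed with that window and with LADs joined across 50 kb. The pairs are not neighbors in every case, since *Cyp2a4* and *Cyp2a5* lie on either side of *Cyp2b23* and *Cyp2b19*.

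The promoters of the 3 pairs are shown because the copies do not always share the position of their start. Each sequence is the 250 bases before the annotated start (NCBIM37), 5′ to 3′ on the strand of the gene, with TATAAA and AGGTCA on either strand in capitals.
*Cyp2b13*, start in a WT LAD only, chr7:26846264-26846513: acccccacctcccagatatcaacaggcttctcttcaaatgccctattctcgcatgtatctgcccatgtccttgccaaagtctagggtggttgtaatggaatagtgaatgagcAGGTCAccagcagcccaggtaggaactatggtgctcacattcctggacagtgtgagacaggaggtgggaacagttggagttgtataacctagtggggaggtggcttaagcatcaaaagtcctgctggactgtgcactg
*Cyp2b9*, start in no LAD, chr7:26958180-26958429: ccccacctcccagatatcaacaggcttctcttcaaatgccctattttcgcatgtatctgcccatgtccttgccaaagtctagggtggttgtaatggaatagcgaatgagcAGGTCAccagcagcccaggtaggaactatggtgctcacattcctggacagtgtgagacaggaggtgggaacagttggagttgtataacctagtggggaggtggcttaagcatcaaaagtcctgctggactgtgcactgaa
*Cyp2a22*, start in a WT LAD only, chr7:27724406-27724655: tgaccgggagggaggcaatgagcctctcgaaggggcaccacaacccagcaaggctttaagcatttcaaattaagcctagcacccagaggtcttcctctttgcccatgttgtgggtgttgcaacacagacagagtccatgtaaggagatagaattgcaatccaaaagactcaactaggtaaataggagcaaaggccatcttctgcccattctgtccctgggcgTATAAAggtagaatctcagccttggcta
*Cyp2a12*, start in a WT LAD only, chr7:27813859-27814108: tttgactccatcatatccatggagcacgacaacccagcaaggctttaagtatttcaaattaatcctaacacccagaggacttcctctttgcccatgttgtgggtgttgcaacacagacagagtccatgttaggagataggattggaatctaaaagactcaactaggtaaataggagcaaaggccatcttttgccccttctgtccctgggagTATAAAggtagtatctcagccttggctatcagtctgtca
*Cyp2a4*, start in no LAD, chr7:27091959-27092208: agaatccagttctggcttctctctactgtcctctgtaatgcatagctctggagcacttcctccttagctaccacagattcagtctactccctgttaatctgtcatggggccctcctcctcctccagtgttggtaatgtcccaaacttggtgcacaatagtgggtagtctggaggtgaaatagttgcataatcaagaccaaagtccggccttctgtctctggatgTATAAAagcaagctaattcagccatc
*Cyp2a5*, start in no LAD, chr7:27620074-27620323: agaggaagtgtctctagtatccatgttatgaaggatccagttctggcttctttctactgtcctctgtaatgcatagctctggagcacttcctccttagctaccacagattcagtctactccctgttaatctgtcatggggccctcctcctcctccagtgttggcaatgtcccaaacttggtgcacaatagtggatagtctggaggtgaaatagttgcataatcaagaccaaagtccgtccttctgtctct

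The promoters of *Cyp2b13* and *Cyp2b9* differed at 2 of 248 aligned bases. The start of *Cyp2b13* lay in a WT LAD and that of *Cyp2b9* 19.4 kb from one. Neither of these promoters held a GATC site, and a link between promoter sequence and position was not tested. The promoters of *Cyp2a4* and *Cyp2a5* differed at 5 of 219 aligned bases and those of *Cyp2a22* and *Cyp2a12* at 19 of 234. TATAAA, the core of a TATA box, was in the promoters of *Cyp2a4*, *Cyp2a22* and *Cyp2a12*, and AGGTCA, a nuclear receptor half-site, in those of *Cyp2b13*, *Cyp2b9*, *Cyp2b23* and *Cyp2b19*. Each motif was in 12.2% of 22367 promoters of the same length. The window of *Cyp2a5* ended at bases that in *Cyp2a4* come just before TATAAA, so the matching stretch of *Cyp2a5* was not searched. Exon 1 was annotated with 239 bases in *Cyp2a5* and 208 in *Cyp2a4*. TTCNNNGAA, which reads the same on both strands, was in 0 of the 9 promoters and in 6.73% of all. GATC, the site that Dam methylates, was in those of *Cyp2b19* and *Cyp2a5* and in 39.6% of all. AGGTCA was thus in promoters of the PI genes *Cyp2b13*, *Cyp2b9* and *Cyp2b23* and of the II gene *Cyp2b19*. TATAAA was in those of the PI genes *Cyp2a22* and *Cyp2a12* and of the II gene *Cyp2a4*. Whether either motif bears on position was not tested.

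Reads from close copies cannot be placed with certainty, so the sequences next to the GATC sites were searched for copies. Of the 6782 ends of 50 bases at the 3391 GATC sites of the cluster, 32.1% occurred at another GATC site of the genome, and 18.1% had a copy within the cluster. Over all chromosomes 15.9% of the ends were repeated. The share was highest in *Cyp2a5* (25 of 50 ends), *Cyp2b13* (46.3%) and *Cyp2a4* (43.5%). It was 30.9% in *Cyp2b9*, 22.7% in both *Cyp2a22* and *Cyp2a12*, 7.53% in *Cyp2b10*, 5.45% in *Cyp2b23* and 0% in *Cyp2b19*. Of the PI genes, *Cyp2b23* was below the share of all chromosomes and the other 4 were above it, and of the II genes *Cyp2b10* and *Cyp2b19* were below it and *Cyp2a4* and *Cyp2a5* above it. Every repeated end of *Cyp2a4*, *Cyp2a5*, *Cyp2a22* and *Cyp2a12* had a copy within the cluster.

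In the WT-only DRs on the PI genes, 58.6% of the ends were repeated at *Cyp2b13*, 33.7% at *Cyp2a12*, 27.5% at *Cyp2b23*, 25.5% at *Cyp2a22* and 14.4% at *Cyp2b9*. By position, the share was 29.2% in the WT-only DRs of the cluster, 28.3% in LADs of both genotypes, 43.8% in KO-only DRs and 34.5% outside LADs. How the authors treated reads with several matches is not given in the sources used here, and the part of repeated ends in the calls was not tested. The study had fewer usable reads in KO than in WT, and KO had about as much DNA in LADs but in more and shorter LADs, and the part of these differences in the calls was not tested.

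**Figure D4:**
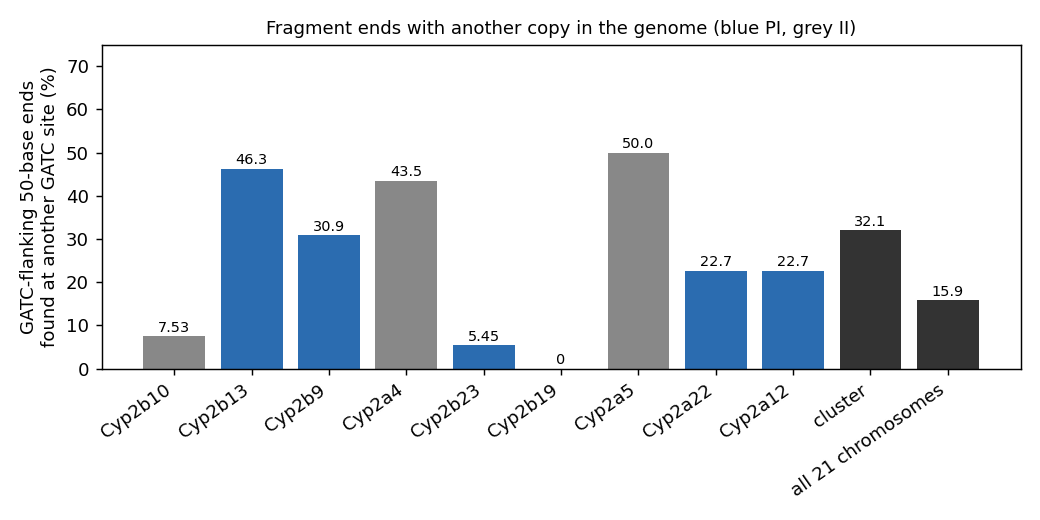
Share (%) of the 50-base ends at GATC sites whose sequence occurs at another GATC site of the genome, for each gene (PI blue, II grey), for the cluster and for all 21 chromosomes. *Cyp2a5*, *Cyp2b13* and *Cyp2a4* have the highest shares and *Cyp2b19* has 0.

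The other protein-coding genes within the cluster were read next. *Nlrp9c*, *Nlrp4a* and *Nlrp9a*, members of a family of NOD-like receptors expressed in oocytes, and *Vmn1r185* were PI, with 74.7%, 78.8%, 26.8% and 100% of their spans in WT-only DRs. *Nlrp9a* kept 73.2% of its span in a KO LAD, and the other 3 had no KO LAD. *Cyp2g1*, a P450 gene of the olfactory mucosa between *Cyp2b19* and *Cyp2a5*, was II, 77.9 kb (WT) and 158 kb (KO) from a LAD by its start. The Cyp2 genes that flank the cluster, *Cyp2s1* on one side and *Cyp2f2* and *Cyp2t4* on the other, were also II, with no LAD of either genotype on them. The nearest protein-coding genes on the 2 sides were *Gm6434* and *Cyp2f2*, both II.

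Over all protein-coding genes 56.6% were II, 5.43% PI, 17.9% PP, 17.1% IP and 2.96% AMB. Of the 89 other P450 genes, 43 were II, 25 (28.1%) PI, 10 PP, 9 IP and 2 AMB. The PI genes were 12 of 15 *Cyp2c*, 8 of 9 *Cyp3a* and 2 of 6 *Cyp4a* genes, which lie in clusters of their own, with *Cyp2j5*, *Cyp4x1* and *Cyp2e1*. In the *Cyp2c* cluster of chromosome 19, where WT LADs covered 74.9% and KO LADs 33.2%, 61.1% of the WT LAD bases lay outside KO LADs. In the *Cyp4a* cluster of chromosome 4 this share was 28.6%. In the *Cyp2d* region of chromosome 15 it was 67.9%, from 1 WT LAD with 16.6 kb in the region (3.93% of its bases), and all 8 of its genes were II. No test of these differences was made, since each cluster was measured in 1 pool per genotype.

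Of 10 genes for partners and regulators of these enzymes, 9 were II, against 56.6% of all protein-coding genes. Among them were *Por*, the reductase that supplies electrons to these enzymes, *Cyb5b* and *Cyb5r3*. The rest of the II genes were the nuclear receptor genes *Nr1i3* (CAR), *Nr1i2* (PXR), *Rxra* and *Hnf4a*, and the transcription factor genes *Nfe2l2* and *Cebpa*. *Ppargc1a*, which encodes a transcriptional coactivator, was PI, with 62.0% of its 113 kb span in WT LADs, 28.1% in KO LADs and 42.2% in WT-only DRs.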

How the data were processed

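DNA near the lamina was profiled by DamID in primary hepatocytes with 4 libraries, 1 per genotype and construct, so 1 library pair stands behind each list. The authors mapped the reads to mm9, divided the Dam-LaminB1 signal by the Dam-only signal on each DpnI fragment (log2), segmented these ratios with the circular binary method of DNAcopy at its defaults to find LADs, and subtracted the lists to get DRs. BWA and limma are named without a role in the submitters' processing notes. The deposited values are the start and end positions of regions in bp, with no signal, score or depth, so no interval or floor for a value can be given.

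LADs and DRs were intersected with GENCODE genes of NCBIM37, the assembly of mm9, with a minimum overlap of 1 base. Exons and starts came from the coding transcript with the largest exonic length. Subtraction gave back all 15995 DRs with a minimum length of 10 kb. LAD lengths and borders are those of the lists. GATC sites, ends of 50 bases and promoters of 250 bases were read from the genome sequence, and coding sequences were aligned pairwise. Python 3.11.15, numpy 2.4.6, pysam 0.24.0, Biopython 1.88, samtools 1.23.1 and matplotlib 3.10.9 were used. The interval code was checked on 200 simulated lists and made 0 errors in 5 steps.

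The 9 genes and the other lists were chosen with earlier results of these data known. All 9 were named, with the protein-coding genes in the cluster and the nearest on each side. The rule also named every PI, IP or AMB gene of the other lists, and after the values were seen the other P450 genes were given by subfamily instead. The P450 partner list held 11 genes, of which 10 were found in the annotation used here. The alternatives changed the overlap, the minimum length of LADs and DRs, the joining of LADs, the transcript and the length of the ends.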

Additional observations from a re-analysis of the deposited data

How the results depend on the processing

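The lists hold 1 library pair per genotype and no signal, so no value has a replicate error and no library could be left out. No paired analysis was possible because the groups held 1 library each, with no replicate numbers. A count or share was taken as unchanged within a factor of 1.5. Of the 9 genes, 5 were PI by any overlap (5.43% of all genes), and 3 were PI when 50% of the span had to be in DRs (*Cyp2b23*, *Cyp2a22* and *Cyp2a12*, with 2.23% of all genes), 3 with DRs of at least 20 kb (3.25% of all genes) and 3 with LADs of at least 20 kb only (5.44%), in both cases *Cyp2b13*, *Cyp2b23* and *Cyp2a12*. The count was 4 at 10% of the span, without *Cyp2b13* (4.99% of all genes), and 4 by the transcription start, without *Cyp2b9* (2.29%). Joining LADs across 50 kb added *Cyp2a4*, for 6 (2.81% of all genes), and the 100 kb centered on each gene also gave 6 (9.71%), of which 4 were PI by span. Only *Cyp2b23* and *Cyp2a12* were PI under every one of these settings. The share of WT LAD bases of the cluster outside KO LADs ranged from 62.1% to 72.0%. The other P450 genes had 25 PI members by span, 24 at 10% and 15 by the start. These last alternatives and a minimum LAD length of 15 kb, which left 5 PI genes, were chosen after seeing the data. Ends of 36 bases were repeated in 42.5% of cases in the cluster. The cause of these changes was not tested beyond the settings themselves.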
